A study of Mus musculus with 6 samples.

Results

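The immunoglobulin light chain variable (V) segments were examined in RNA sequencing profiles of mouse small intestine. They were taken from the deposited table as every gene whose name starts with Igkv or Iglv, and numbered 163 of 54012 listed genes, 160 for the kappa chain and 3 for the lambda chain. The libraries came from 3 mice labelled TLR4ΔIEC and 3 mice labelled wild type (WT), all aged 8 to 12 weeks. The series asks what depletion of TLR4, which senses bacterial lipopolysaccharide, does in the intestine, and every library is of total RNA from gut. The labels do not give the Cre driver, the floxed allele, the sex or the stretch of bowel taken, nor any agent given to either group. Values are TPM, a transcript level per length that is scaled to 1 common total in every library.

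An antibody light chain is made when a B cell joins 1 V segment to a joining (J) segment by V(D)J recombination and transcribes the product together with a constant (C) gene, Igkc for kappa and Iglc1, Iglc2 or Iglc3 for lambda. A cell and its descendants use 1 light chain, so the V transcripts of a tissue reflect which B cell clones it holds and how much each transcribes. In the gut most of this RNA comes from plasma cells of the lamina propria, which secrete IgA and transcribe immunoglobulin genes at a far higher rate than resting B cells. The mouse uses kappa in most of its antibodies, from a long row of Igkv segments that face in both directions, and has few Iglv segments.

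The annotation (GENCODE M21, GRCm38) places the Igkv segments on chromosome 6 between 67555497 and 70704177, from 18.7 to 3166.7 kb from the joining segment Igkj1, and the 3 Iglv segments on chromosome 16 between 19085017 and 19260859. It calls 103 of the 163 segments V genes and 60 pseudogenes. A V gene here has a short leader exon and a main exon that ends where it is joined to J. Many segments are close copies: each of the 103 V genes was 94.5% identical to its nearest relative in coding sequence at the median (lowest 57.6%, highest 98.6%), and 48 had a relative at 95% or more. TPM of such relatives depend on how short or ambiguous reads were divided among them, and on somatic mutation in the rearranged copies, so values of close relatives are uncertain one by one. The germline ends of the main exons of Igkv1-110 and Igkv1-117 are shown because they were the kappa segments of highest mean TPM and differ at only 10 of the 300 bases printed, which are in capitals. They lie on the plus strand of GRCm38 at chr6:68270968-68271267 and chr6:68121528-68121827.
Igkv1-110: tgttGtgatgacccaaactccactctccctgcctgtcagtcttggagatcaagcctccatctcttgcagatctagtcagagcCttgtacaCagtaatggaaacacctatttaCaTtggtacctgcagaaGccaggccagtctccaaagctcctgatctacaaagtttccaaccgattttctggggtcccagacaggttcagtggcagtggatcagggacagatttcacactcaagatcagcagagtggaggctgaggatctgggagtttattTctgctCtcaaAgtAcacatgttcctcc
Igkv1-117: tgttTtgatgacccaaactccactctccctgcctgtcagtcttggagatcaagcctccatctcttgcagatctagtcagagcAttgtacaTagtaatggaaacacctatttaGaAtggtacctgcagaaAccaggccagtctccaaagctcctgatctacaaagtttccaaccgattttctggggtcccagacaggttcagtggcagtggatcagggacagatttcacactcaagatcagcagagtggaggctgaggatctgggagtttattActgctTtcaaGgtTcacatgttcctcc

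The ends of the main exons of Iglv1 and Iglv2 are shown because these close copies had log2 fold changes of opposite sign, neither of which passed. They lie on the minus strand at chr16:19085017-19085316 and chr16:19260401-19260700, and differ at 8 of the 300 bases printed, again in capitals. Over their whole coding sequence Iglv1 and Iglv2 were 96.9% identical, and Igkv1-110 and Igkv1-117 were 97.2% identical.
Iglv1: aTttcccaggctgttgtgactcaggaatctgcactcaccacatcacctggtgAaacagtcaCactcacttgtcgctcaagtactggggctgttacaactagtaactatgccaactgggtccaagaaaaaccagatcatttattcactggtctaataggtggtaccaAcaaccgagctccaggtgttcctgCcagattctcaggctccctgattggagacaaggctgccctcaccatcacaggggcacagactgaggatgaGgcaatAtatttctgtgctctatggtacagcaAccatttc
Iglv2: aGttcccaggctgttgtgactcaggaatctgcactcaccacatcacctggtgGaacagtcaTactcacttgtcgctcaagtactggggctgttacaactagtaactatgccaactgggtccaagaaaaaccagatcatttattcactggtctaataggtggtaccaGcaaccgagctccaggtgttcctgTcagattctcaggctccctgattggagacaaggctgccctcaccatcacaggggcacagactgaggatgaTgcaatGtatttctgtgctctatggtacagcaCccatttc

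The libraries differed in ways that bear on these values. Tlr4 itself was higher in every library labelled TLR4ΔIEC. It had 1.29, 1.22 and 4.81 TPM in TLR4ΔIEC libraries and 0.65, 0.57 and 0.70 TPM in WT libraries (log2 fold change 0.92, limma adjusted p = 0.243). Total RNA from gut counts Tlr4 of every cell type in it, and the labels do not say which exons were targeted. Gene-level TPM thus checks the label only in part. TLR4ΔIEC libraries are therefore the libraries labelled so throughout, and the direction of every comparison rests on the labels alone. TLR4ΔIEC replicate 2 stood apart: 12221 genes reached 1 TPM there, where the rest had 13197 to 13634, and it held 12836 TPM of the ribosomal RNA gene Rn18s, where the rest had 3806 to 7032 TPM. Epithelium markers were present in all libraries, and their summed level was 10961, 13978 and 10248 TPM in TLR4ΔIEC libraries and 8523, 8189 and 7915 TPM in WT libraries. Alpha-defensin genes, which Paneth cells express, took 18.4%, 5.21% and 6.61% of all TPM in TLR4ΔIEC libraries and 26.5%, 25.3% and 28.7% in WT libraries, so that they too were lower in every TLR4ΔIEC library. Beyond a rescaling without these genes, whose value stands with the sums, the part of these differences in the results was not tested.

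Light chain V transcripts took a smaller share of the RNA in the libraries labelled TLR4ΔIEC. Their summed share of all TPM was 0.469%, 0.0930% and 0.406% in TLR4ΔIEC replicates 1 to 3 and 1.42%, 1.06% and 1.07% in WT replicates 1 to 3. Every TLR4ΔIEC library was below every WT library, and the means were 0.323 ± 0.202% and 1.18 ± 0.205% (SD, n = 3 each), a 3.66-fold higher share in WT. TLR4ΔIEC replicate 2, the library that stood apart, was the lowest by far. The log2 ratio of the group means was −1.87 with all libraries, −1.43 without that replicate, and −2.16 after rescaling without the alpha-defensin, mitochondrial and 18S-like genes. A sum over a chosen set of genes carries no test here, and 3 libraries against 3 allow no exact p below 0.1. In bulk tissue, fewer cells of a type and less RNA per cell cannot be told apart.

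Kappa segments made up nearly all of the sum. They summed to 4510, 909 and 3924 TPM in TLR4ΔIEC libraries and to 13963, 10265 and 10548 TPM in WT libraries, 3.72-fold higher in WT. The 3 lambda segments summed to 182, 21.5 and 140 TPM in TLR4ΔIEC libraries and to 225, 294 and 159 TPM in WT libraries, and there the groups overlapped. Lambda was 3.87%, 2.32% and 3.46% of light chain V TPM in TLR4ΔIEC libraries and 1.59%, 2.79% and 1.49% in WT libraries, also with overlap. The 60 pseudogenes together gave 2.17, 0.53 and 2.80 TPM in TLR4ΔIEC libraries and 10.7, 6.44 and 3.17 TPM in WT libraries, so the V genes carried practically the whole signal.

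**Figure D1:**
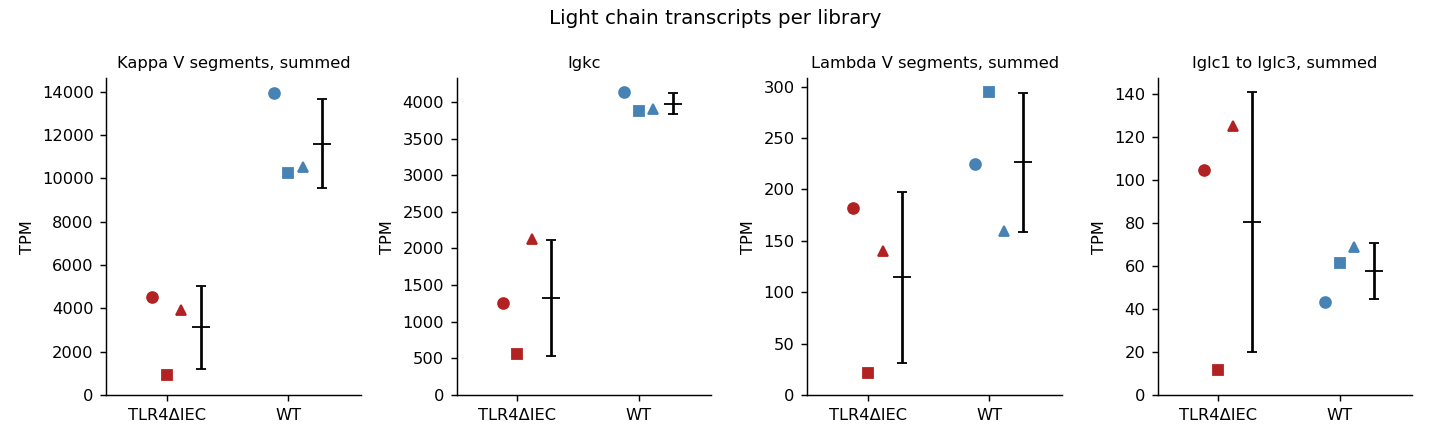
Summed TPM of the kappa V segments, Igkc, the lambda V segments and Iglc1 to Iglc3 in each library (y axis, TPM), TLR4ΔIEC left and WT right. Circles, squares and triangles are replicates 1, 2 and 3, and the black bar is the mean with the SD (n = 3). The kappa V and Igkc values of TLR4ΔIEC lie below all those of WT, whereas the lambda V and lambda C values overlap.

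Of the 163 segments, 89 averaged 1 TPM or more across libraries and were tested with limma among all genes, 86 kappa and 3 lambda. The other 74 were not tested: 56 of the 163 were listed at 0 in every library, 51 of them pseudogenes. Of the tested segments, 6 reached that mean through WT, with a TLR4ΔIEC mean under 1 TPM, and none the other way round. Igkv3-11 was the only tested pseudogene, at 0.46, 0 and 1.26 TPM in TLR4ΔIEC libraries and 5.15, 4.86 and 1.93 TPM in WT libraries. No segment passed an adjusted p of 0.05 over all tested genes (0 of 89, where 0.119% of all tested genes passed). The smallest adjusted p was 0.0689. At an unadjusted limma p under 0.05, 39 of 89 were lower in TLR4ΔIEC (2.77% of all tested genes were) and 1 of 89 was higher (18.4% of all). In 35 of 89 segments all TLR4ΔIEC libraries lay below all WT libraries (3.53% of all tested genes), and in 1 of 89 above (24.1% of all). The 6 segments tested through their WT level are included in the 89. Of them, Igkv3-11 and Igkv4-54 are among the 35, and Igkv3-11 is among the 39. Part of these counts was thus set by which segments were tested, and no conclusion is drawn from them. The log2 fold change was negative in 84 segments and positive in 5, with a median of −1.79 beside 0.16 over all tested genes. TLR4ΔIEC replicate 2 was the lowest of the 6 libraries in 75 of the 89.

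Igkv1-110 was the kappa segment of highest mean TPM and led the V transcripts of WT replicates 2 and 3. It had 211, 18.2 and 140 TPM in TLR4ΔIEC libraries and 780, 1229 and 1167 TPM in WT libraries. The groups were far apart, with a log2 fold change of −3.64 that did not pass over all genes (limma adjusted p = 0.101). Its close copy Igkv1-117 had 647, 46.0 and 177 TPM in TLR4ΔIEC libraries and 570, 608 and 610 TPM in WT libraries. WT libraries were nearly alike for Igkv1-117, whereas TLR4ΔIEC libraries ran from far below them to above them, and it was the leading segment of TLR4ΔIEC replicate 1 at 13.8% of the library's light chain V TPM (log2 fold change −1.76, adjusted p = 0.275). As shares of light chain V TPM, Igkv1-110 was 4.49%, 1.96% and 3.46% in TLR4ΔIEC libraries and 5.50%, 11.6% and 10.9% in WT libraries, without overlap.

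Igkv6-23 and Igkv6-17, whose coding sequences were 91.1% identical, came next. Igkv6-23 had 160, 7.98 and 245 TPM in TLR4ΔIEC libraries and 915, 790 and 333 TPM in WT libraries (log2 fold change −3.14, limma adjusted p = 0.197). Igkv6-17 had 171, 61.1 and 307 TPM in TLR4ΔIEC libraries and 930, 468 and 434 TPM in WT libraries (log2 fold change −1.95, adjusted p = 0.141). Neither overlapped between the groups, and Igkv6-17 led TLR4ΔIEC replicate 3. Igkv10-96 had 269, 48.0 and 251 TPM in TLR4ΔIEC libraries and 1007, 392 and 368 TPM in WT libraries (log2 fold change −1.82, adjusted p = 0.207). It led WT replicate 1, and again the groups were apart. Of the Igkv3 family, Igkv3-12 had 265, 47.0 and 159 TPM in TLR4ΔIEC libraries and 436, 377 and 434 TPM in WT libraries (log2 fold change −1.71, adjusted p = 0.162). Igkv3-2, the segment leading TLR4ΔIEC replicate 2 at 87.7 TPM, had 143 and 226 TPM in the other TLR4ΔIEC libraries and 328, 540 and 376 TPM in WT libraries (log2 fold change −1.51, adjusted p = 0.108). Neither overlapped between the groups, and Igkv3-12 was the more even among WT libraries.

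Other abundant segments owed much of their WT mean to a single mouse. Igkv4-59 had 39.0, 21.7 and 71.5 TPM in TLR4ΔIEC libraries and 929, 127 and 78.6 TPM in WT libraries. Igkv8-30 had 65.5, 23.4 and 77.1 TPM in TLR4ΔIEC libraries and 105, 113 and 804 TPM in WT libraries. Both were without overlap, but WT replicate 1 for Igkv4-59 and WT replicate 3 for Igkv8-30 exceeded the other WT libraries by more than the difference between those and TLR4ΔIEC. Igkv1-135 had 147, 9.64 and 106 TPM in TLR4ΔIEC libraries and 49.9, 608 and 253 TPM in WT libraries, with overlap. Igkv5-48 also overlapped, at 188, 55.0 and 96.5 TPM in TLR4ΔIEC libraries and 475, 127 and 71.1 TPM in WT libraries, and its log2 fold change of −0.70 became 0.07 without WT replicate 1. Igkv8-21 was more even, with 60.2, 14.8 and 73.1 TPM in TLR4ΔIEC libraries and 502, 191 and 377 TPM in WT libraries (log2 fold change −3.00, limma adjusted p = 0.0940).

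**Figure D2:**
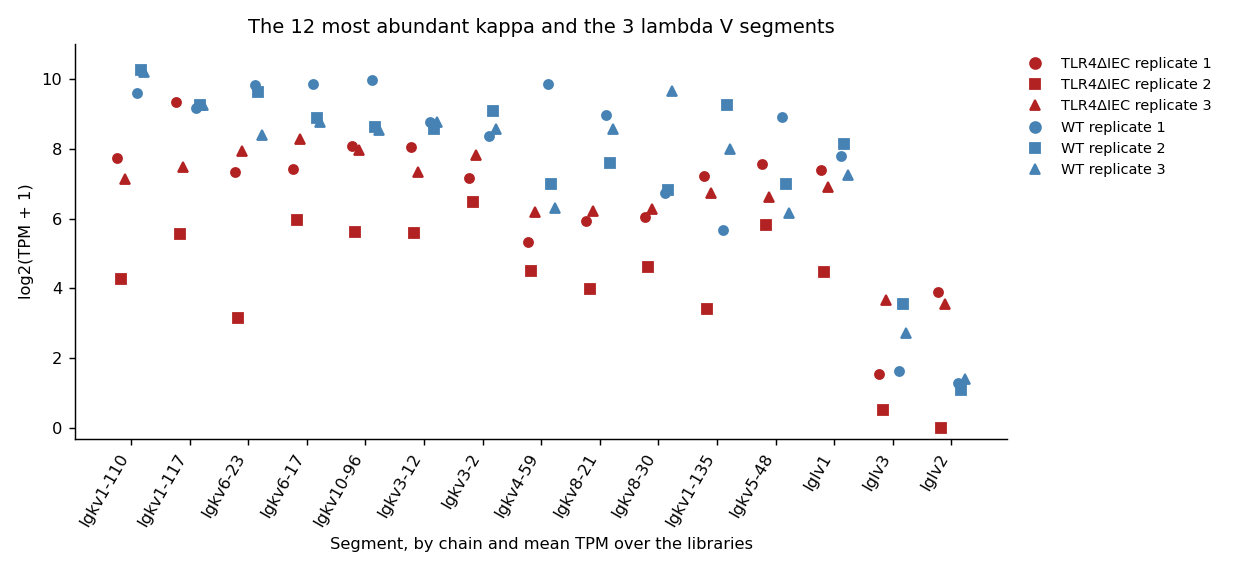
Level of the 12 kappa segments of highest mean TPM and the 3 lambda segments in each library, as log2(TPM + 1) on the y axis. Red marks are TLR4ΔIEC and blue marks WT, with circles, squares and triangles for replicates 1, 2 and 3. The red square of TLR4ΔIEC replicate 2 is the lowest mark of every segment shown, and the red circle and triangle of Iglv2 lie above its WT marks.

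The segments with the largest differences among those without overlap were Igkv17-121 (log2 fold change −4.16), Igkv2-137 (−3.99), Igkv13-84 (−3.87) and Igkv17-127 (−3.72), none of which passed over all genes. Igkv17-121 had 21.5, 1.05 and 33.8 TPM in TLR4ΔIEC libraries and 130, 255 and 269 TPM in WT libraries (limma adjusted p = 0.108). Its close relative Igkv17-127 had 29.7, 7.33 and 27.7 TPM in TLR4ΔIEC libraries and 161, 336 and 302 TPM in WT libraries (adjusted p = 0.0800). These 2 are the V genes of the Igkv17 family. Igkv2-137 had 18.9, 0.45 and 12.8 TPM in TLR4ΔIEC libraries and 251, 94.9 and 64.4 TPM in WT libraries. Igkv13-84 had 2.03, 0 and 4.65 TPM in TLR4ΔIEC libraries and 30.2, 26.3 and 62.0 TPM in WT libraries (adjusted p = 0.0828). Igkv4-70 and Igkv6-25 completed this group at log2 fold changes of −3.27 and −3.04. Most of the WT mean of Igkv6-25 came from WT replicate 1, at 618 TPM beside 91.3 and 75.9 TPM in the other WT libraries, against 65.4, 9.74 and 10.0 TPM in TLR4ΔIEC libraries.

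The segment of smallest p was Igkv14-111, with 55.0, 32.6 and 33.8 TPM in TLR4ΔIEC libraries and 142, 160 and 115 TPM in WT libraries. Its difference was smaller than that of many other segments but the libraries of each group were close together (log2 fold change −1.79, SE 0.23, limma adjusted p = 0.0689). It passed with median-of-ratios scaling (adjusted p = 0.0459) and with quantile normalization (adjusted p = 0.0479), and its adjusted p ranged from 0.0125 to 0.294 over the alternatives. Igkv12-46 had 48.6, 20.9 and 54.6 TPM in TLR4ΔIEC libraries and 205, 202 and 403 TPM in WT libraries (log2 fold change −2.71, adjusted p = 0.0800).

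Igkv1-122 went the other way. It had 15.5, 82.5 and 12.8 TPM in TLR4ΔIEC libraries and 0.70, 4.14 and 4.25 TPM in WT libraries, so that every TLR4ΔIEC library was above every WT library (log2 fold change 2.90, limma adjusted p = 0.115). TLR4ΔIEC replicate 2, with the fewest V transcripts, was the highest of all, and there Igkv1-122 made up 8.87% of light chain V TPM beside 0.331% and 0.314% in TLR4ΔIEC replicates 1 and 3. In coding sequence Igkv1-122 was 94.2% identical to Igkv1-110, its nearest relative. The other segments with a positive log2 fold change were Iglv2, Igkv4-74, Igkv9-123 and Igkv14-126, all with overlap between the groups.

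Among the lambda segments, Iglv1 carried nearly all of the transcripts. It had 166, 21.1 and 118 TPM in TLR4ΔIEC libraries and 222, 282 and 152 TPM in WT libraries (log2 fold change −1.49, limma adjusted p = 0.284), with overlap. Its close copy Iglv2 had 14.0, 0 and 10.7 TPM in TLR4ΔIEC libraries and 1.47, 1.15 and 1.63 TPM in WT libraries (log2 fold change 1.22, adjusted p = 0.508). Iglv2 was thus several times higher in TLR4ΔIEC replicates 1 and 3 than in any WT library and listed at 0 in TLR4ΔIEC replicate 2. Iglv3, which is unlike the other lambda segments at 57.6% identity to its nearest relative Iglv1, had 1.91, 0.44 and 11.6 TPM in TLR4ΔIEC libraries and 2.12, 10.8 and 5.64 TPM in WT libraries, with wide overlap.

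The segments fall into 23 families by the number after Igkv or Iglv, 20 of them kappa, and 21 families were above 0 in some library. The 11 families with at least 2% of light chain V TPM in the mean of the libraries held 90.0% or more of it in each. Igkv1, Igkv3, Igkv6 and Igkv4 were the most abundant. Igkv1 summed to 1052, 157 and 457 TPM in TLR4ΔIEC libraries and 1439, 2577 and 2072 TPM in WT libraries, and Igkv3 to 658, 212 and 743 TPM in TLR4ΔIEC libraries and 1755, 1665 and 1547 TPM in WT libraries. In 10 of the 11 families all TLR4ΔIEC libraries were below all WT libraries in TPM, and Iglv1 was the exception. All 8 tested Igkv3 segments were lower without overlap (3.53% of all tested genes were), but Igkv3-11 was tested only through its WT level, so the count supports nothing.

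As shares of light chain V TPM, most families overlapped between the groups. Igkv1 took 22.4%, 16.9% and 11.2% in TLR4ΔIEC libraries and 10.1%, 24.4% and 19.3% in WT libraries. Igkv4 took 15.8%, 12.7% and 15.9% in TLR4ΔIEC libraries and 21.7%, 8.38% and 8.80% in WT libraries, where Igkv4-59 and Igkv4-53 stood high in WT replicate 1. Igkv8 took 4.96%, 6.94% and 5.77% in TLR4ΔIEC libraries and 5.53%, 4.78% and 16.2% in WT libraries, with Igkv8-30 high in WT replicate 3. Of the 11 families, Igkv17 alone did not overlap, at 1.09%, 0.901% and 1.51% in TLR4ΔIEC libraries and 2.06%, 5.60% and 5.34% in WT libraries. Family shares of the group means differed by 11.7% of light chain V TPM, and by 18.5% without WT replicate 1. Single libraries of the same group differed from one another by 15.9% to 32.3% (6 pairs). Means vary less than single libraries, so setting the 11.7% beside these values cannot show whether the groups differ.

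**Figure D3:**
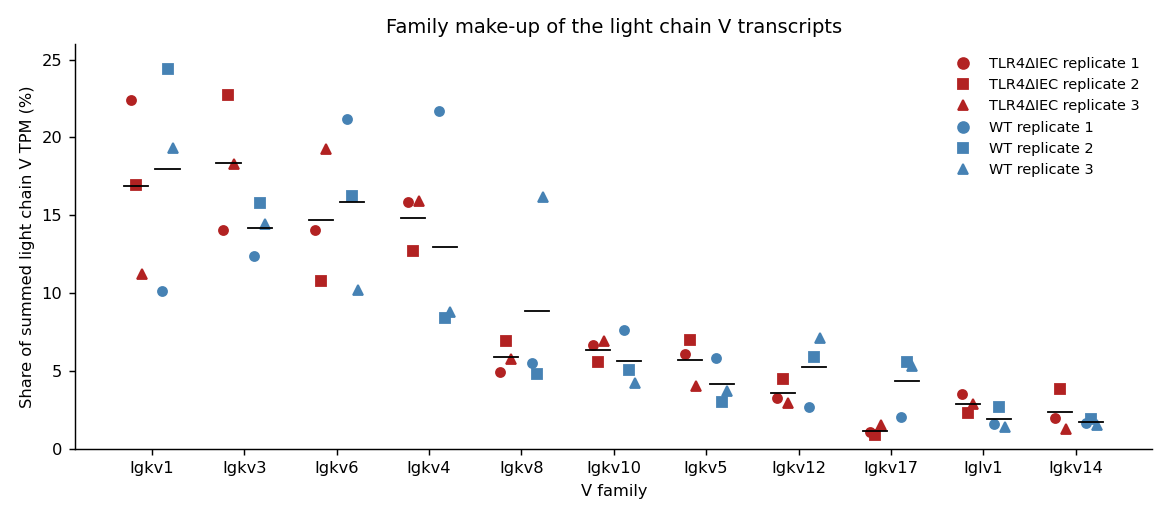
Share of summed light chain V TPM (y axis, %) taken by each of the 11 families at 2% or more, in each library. TLR4ΔIEC (red) is left of WT (blue), marks are replicates 1 (circle), 2 (square) and 3 (triangle), and black lines are group means. Only the Igkv17 marks of TLR4ΔIEC all lie below those of WT.

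Most measures of the breadth of the repertoire overlapped between the groups, and TLR4ΔIEC replicate 2 was the narrowest library by most measures. Segments above 0 TPM numbered 93, 72 and 94 in TLR4ΔIEC libraries and 93, 94 and 96 in WT libraries. At 1 TPM or more there were 86, 60 and 87 segments in TLR4ΔIEC libraries and 86, 90 and 85 in WT libraries. At 5 TPM or more there were 68, 32 and 70 segments in TLR4ΔIEC libraries and 73, 77 and 72 in WT libraries. At that threshold every TLR4ΔIEC library was below every WT library, whereas at the lower thresholds TLR4ΔIEC replicates 1 and 3 were within the WT range. Such counts move with the summed level: segments at 0.1% or more of a library's own light chain V TPM numbered 68, 60 and 73 in TLR4ΔIEC libraries and 61, 69 and 65 in WT libraries. The difference of the means, TLR4ΔIEC minus WT, was −9.33 segments at 1 TPM or more (−0.50 without TLR4ΔIEC replicate 2), −17.3 at 5 TPM or more and 2.00 by that relative threshold.

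The effective number of segments, the exponential of the Shannon entropy of their shares, was 40.5, 32.9 and 45.9 in TLR4ΔIEC libraries and 39.0, 39.1 and 39.0 in WT libraries. WT libraries were nearly identical, and TLR4ΔIEC libraries lay on either side of them. By inverse Simpson, which weights the most abundant segments more, it was 24.1, 22.7 and 32.1 in TLR4ΔIEC libraries and 27.9, 24.6 and 26.2 in WT libraries. The leading segment took 13.8%, 9.43% and 7.54% in TLR4ΔIEC libraries and 7.10%, 11.6% and 10.9% in WT libraries. The 10 highest segments took 50.9%, 58.8% and 46.6% in TLR4ΔIEC libraries and 52.3%, 53.6% and 49.6% in WT libraries. Of the measures of breadth given here, the groups were apart in the count at 5 TPM or more alone.

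**Figure D4:**
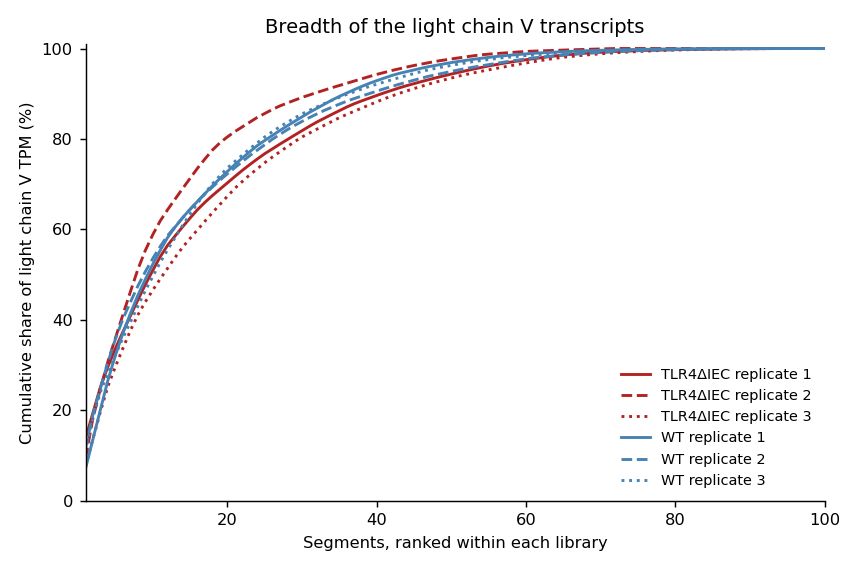
Cumulative share of light chain V TPM (y axis, %) over segments ranked from the highest within each library (x axis, rank). Red lines are TLR4ΔIEC and blue lines WT, with solid, dashed and dotted lines for replicates 1, 2 and 3. TLR4ΔIEC replicate 2 climbs fastest, to 58.8% at 10 segments, and the other 5 libraries lie between 46.6% and 53.6% there.

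Which segments led differed from mouse to mouse. In all, 24 segments were among the 10 highest of at least 1 library, 12 of them in 1 library alone, and 3 were among the 10 highest of every library (Igkv1-117, Igkv10-96 and Igkv6-17). The share of the repertoire that 2 libraries had in common, summed as the smaller share of each segment, was 61.2% to 72.9% between TLR4ΔIEC libraries, 62.4% to 77.4% between WT libraries and 54.0% to 72.5% between the groups. These ranges overlap, and the lowest values all involve TLR4ΔIEC replicate 2. Among the 60 segments of highest mean TPM, the share of light chain V TPM was lower without overlap in TLR4ΔIEC for 9 and higher for 5, and it overlapped for 46. With 3 libraries against 3 no exact p falls below 0.1, so some of the 60 would lie apart by order alone. This share has no counterpart over all genes, so no conclusion is drawn from the counts. Igkv4-74 was one of the higher ones, at 3.51%, 5.18% and 1.92% in TLR4ΔIEC libraries and 1.72%, 0.292% and 0.304% in WT libraries, although its TPM overlapped. Igkv6-13 was another, at 2.54%, 0.871% and 2.40% in TLR4ΔIEC libraries and 0.302%, 0.496% and 0.507% in WT libraries. Igkv4-53, Igkv4-74 and Igkv6-13 were chosen after their values were seen.

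Position along the kappa locus did not separate the groups. Segments under 1 Mb from Igkj1 gave 43.9%, 53.1% and 52.0% of kappa V TPM in TLR4ΔIEC libraries and 48.3%, 46.1% and 52.0% in WT libraries. Segments over 2 Mb away gave 36.3%, 32.8% and 29.6% in TLR4ΔIEC libraries and 28.1%, 41.7% and 34.9% in WT libraries. Segments on the same strand as Igkj1, which join by deletion of the stretch between rather than by its inversion, gave 48.7%, 57.9% and 47.8% in TLR4ΔIEC libraries and 44.2%, 57.7% and 50.3% in WT libraries. Segments over 2 Mb away were 53 of the 160 kappa segments. In the group means their share of the transcripts was near that fraction, at 32.9% in TLR4ΔIEC and 34.9% in WT. At the other distances the share was not near the fraction. Segments under 1 Mb away were 50 of the 160 and gave 49.7% in TLR4ΔIEC and 48.8% in WT. Segments at 1 to 2 Mb were 57 of the 160 and gave 17.5% in TLR4ΔIEC and 16.3% in WT. The 160 include the kappa pseudogenes, which gave few transcripts.

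The kappa constant gene was also lower in every TLR4ΔIEC library. Igkc had 1261, 554 and 2134 TPM in TLR4ΔIEC libraries and 4140, 3880 and 3905 TPM in WT libraries (log2 fold change −1.80, limma adjusted p = 0.113). The ratio of kappa V to Igkc TPM was 3.58, 1.64 and 1.84 in TLR4ΔIEC libraries and 3.37, 2.65 and 2.70 in WT libraries, with overlap. The lambda constant genes summed to 104, 11.4 and 125 TPM in TLR4ΔIEC libraries and 43.4, 61.4 and 68.6 TPM in WT libraries. Iglc2 gave most of it, with 98.9, 7.12 and 95.5 TPM in TLR4ΔIEC libraries and 35.9, 47.2 and 49.9 TPM in WT libraries (log2 fold change −0.07, adjusted p = 0.975, and positive under 4 of the alternatives). As a share of light chain constant TPM, lambda was 7.64%, 2.01% and 5.53% in TLR4ΔIEC libraries and 1.04%, 1.56% and 1.73% in WT libraries, so that every TLR4ΔIEC library was above every WT library. The ratio of lambda V to lambda C TPM was 1.74, 1.89 and 1.13 in TLR4ΔIEC libraries and 5.19, 4.79 and 2.32 in WT libraries, without overlap. Of 19 light chain constant, joining and surrogate genes, 5 were tested and none passed, and 13 were listed at 0 in every library, among them the Igkj segments.

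Heavy chain V segments, 183 in the table, were also lower. They summed to 2837, 471 and 1948 TPM in TLR4ΔIEC libraries and 8539, 5664 and 6291 TPM in WT libraries. The ratio of light to heavy chain V TPM was 1.65, 1.98 and 2.09 in TLR4ΔIEC libraries and 1.66, 1.86 and 1.70 in WT libraries, with overlap. Of 89 heavy chain segments tested, 3 passed, all lower in TLR4ΔIEC (0.119% of all tested genes passed in either direction): Ighv1-63 (log2 fold change −3.11, limma adjusted p = 0.0316), Ighv14-1 (−2.05, adjusted p = 0.0494) and Ighv14-4 (−3.91, adjusted p = 0.0494). Ighv1-63 had 0, 0 and 0.55 TPM in TLR4ΔIEC libraries and 11.79, 6.67 and 9.27 TPM in WT libraries. It was thus tested only through its WT level. Ighv14-4 had 3.05, 0 and 1.10 TPM in TLR4ΔIEC libraries and 32.65, 29.78 and 27.09 TPM in WT libraries. Ighv14-1 had 6.11, 8.40 and 10.17 TPM in TLR4ΔIEC libraries and 41.94, 27.84 and 41.73 TPM in WT libraries. The count of 3 therefore supports nothing. All 3 lost the call with a replicate block, with a pseudocount of 0.1, with no filter on mean TPM and without TLR4ΔIEC replicate 2, WT replicate 2 or WT replicate 3, Ighv14-1 and Ighv14-4 also without TLR4ΔIEC replicate 3 or WT replicate 1, at a mean of at least 5 TPM and without limma's trend, and Ighv14-4 also with robust limma and after rescaling without the 20 highest genes. Their adjusted p was highest without WT replicate 3, at 0.195 for Ighv1-63 and 0.221 for Ighv14-1 and Ighv14-4. At an unadjusted limma p under 0.05, 48 of the 89 were lower, Ighv1-63 among them (2.77% of all tested genes were). The median log2 fold change of the 89 was −2.05 beside 0.16 over all tested genes. V segments of the T cell receptor, which lymphocytes of another kind rearrange, summed to 38.5, 15.0 and 37.0 TPM in TLR4ΔIEC libraries and 27.0, 39.6 and 53.5 TPM in WT libraries, with overlap.

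Igha and Jchain, genes of the IgA plasma cell, were lower in the same libraries without passing the test. Igha, the IgA heavy chain, had 1420, 524 and 1762 TPM in TLR4ΔIEC libraries and 4856, 3948 and 3997 TPM in WT libraries (log2 fold change −1.96, limma adjusted p = 0.101). Jchain, which joins IgA into dimers, had 220, 46.9 and 296 TPM in TLR4ΔIEC libraries and 540, 554 and 705 TPM in WT libraries (log2 fold change −2.02, adjusted p = 0.150). The ratio of light chain V to Jchain TPM was 21.3, 19.8 and 13.7 in TLR4ΔIEC libraries and 26.3, 19.1 and 15.2 in WT libraries, with overlap. Pigr, the epithelial receptor that carries IgA into the lumen, had 457, 395 and 772 TPM in TLR4ΔIEC libraries and 814, 717 and 687 TPM in WT libraries, with overlap (log2 fold change −0.51, adjusted p = 0.321). Tnfrsf17, the survival receptor BCMA of plasma cells, is 1 of 15 plasma cell genes listed, which differed in direction. It had 1.43, 0.77 and 0.84 TPM in TLR4ΔIEC libraries and 5.01, 3.01 and 3.83 TPM in WT libraries (log2 fold change −1.29, limma adjusted p = 0.0927).

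The 15 plasma cell genes listed, Tnfrsf17 among them, differed in direction. The most abundant, Txndc5, Xbp1, Sdc1 and Creld2, are also made by epithelium, and the list summed to 521, 538 and 500 TPM in TLR4ΔIEC libraries and 540, 470 and 436 TPM in WT libraries. None of the 15 passed, and at an unadjusted limma p under 0.05, 4 were lower (2.77% of all tested genes were) and 2 higher (18.4% of all). In 5 of the 15 every TLR4ΔIEC library was below every WT library (3.53% of all) and in 3 above (24.1% of all). Mzb1, an endoplasmic reticulum protein of antibody secretion, had 15.3, 3.15 and 22.2 TPM in TLR4ΔIEC libraries and 29.6, 24.3 and 23.5 TPM in WT libraries (log2 fold change −1.20, limma adjusted p = 0.292). Derl3 (log2 fold change −1.25), Tent5c (−1.46) and Slamf7 (−0.92) were likewise lower in every TLR4ΔIEC library and did not pass. Xbp1, the transcription factor of the secretory programme, had 110, 115 and 130 TPM in TLR4ΔIEC libraries and 137, 121 and 112 TPM in WT libraries. Txndc5 (log2 fold change −0.05) and Creld2 (0.18), both of protein folding in the endoplasmic reticulum, overlapped as well. Sdc1, the surface proteoglycan CD138, had 96.0, 152 and 116 TPM in TLR4ΔIEC libraries and 78.0, 54.6 and 55.6 TPM in WT libraries (log2 fold change 0.94, adjusted p = 0.107). Edem1 (log2 fold change 0.32) and Ell2 (0.31) were likewise higher in every TLR4ΔIEC library and did not pass.

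Genes of resting B cells had another pattern, high in TLR4ΔIEC replicates 1 and 3 and near absent in replicate 2. The 15 follicular B cell genes listed summed to 121, 6.24 and 202 TPM in TLR4ΔIEC libraries and 23.9, 37.3 and 68.4 TPM in WT libraries. Of these, 14 were tested, none passed and none had an unadjusted limma p under 0.05 (2.77% of all tested genes were lower at it and 18.4% higher). Their median log2 fold change was 0.72 beside 0.16 over all tested genes. Cd79a, a signalling chain of the B cell receptor, had 27.2, 1.24 and 46.1 TPM in TLR4ΔIEC libraries and 6.71, 9.42 and 16.4 TPM in WT libraries. Cd79b, its partner chain, had 20.5, 1.09 and 39.4 TPM in TLR4ΔIEC libraries and 4.69, 8.30 and 12.6 TPM in WT libraries. Cd37 and H2-Ob, a tetraspanin and a regulator of peptide loading, had log2 fold changes of 0.45 and 0.64, and were also higher in TLR4ΔIEC replicates 1 and 3 than in any WT library. Ighm, the IgM heavy chain, had 69.0, 3.09 and 109 TPM in TLR4ΔIEC libraries and 11.4, 14.6 and 27.3 TPM in WT libraries (log2 fold change 0.84, adjusted p = 0.720). Ighd, the IgD heavy chain of resting B cells, had 16.1, 0.24 and 27.1 TPM in TLR4ΔIEC libraries and 0.92, 2.39 and 6.38 TPM in WT libraries. Ms4a1, the B cell antigen CD20, had 6.23, 0.06 and 8.90 TPM in TLR4ΔIEC libraries and 0.23, 0.90 and 3.15 TPM in WT libraries. TLR4ΔIEC replicates 1 and 3 thus had more RNA of resting B cell genes than any WT library, together with the lower light chain V sums. Peyer's patch stroma and M cell markers, of tissue rich in such B cells, summed to 155, 16.0 and 223 TPM in TLR4ΔIEC libraries and 48.6, 97.2 and 89.7 TPM in WT libraries, and their part in these results was not tested. Ighd, Ms4a1, Tnfrsf17, Mzb1, Derl3, Tent5c, Slamf7, Edem1 and Ell2 were chosen after their values were seen.

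**Figure D5:**
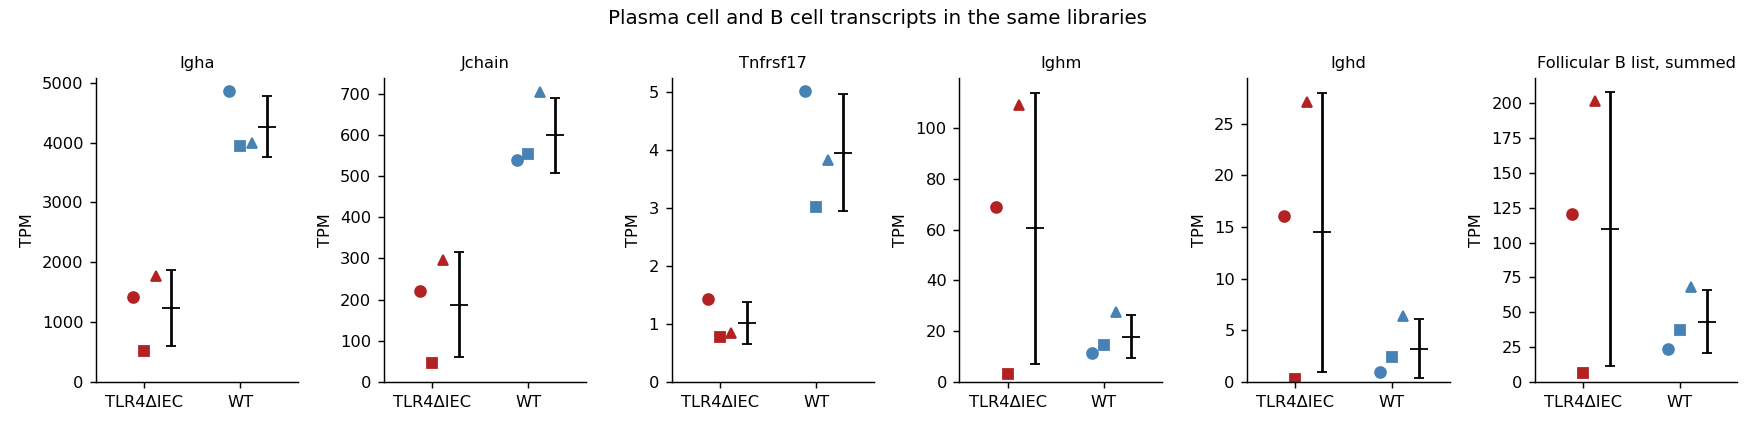
TPM of Igha, Jchain, Tnfrsf17, Ighm and Ighd, and the summed TPM of the 15 follicular B cell genes, in each library (y axes, TPM), TLR4ΔIEC left and WT right. Marks are replicates 1 (circle), 2 (square) and 3 (triangle), and the black bar is the mean with the SD (n = 3). Igha, Jchain and Tnfrsf17 lie below WT in all TLR4ΔIEC libraries, whereas the other 3 panels show TLR4ΔIEC replicates 1 and 3 above WT and replicate 2 below it. Tnfrsf17 is 1 of 15 plasma cell genes listed, of which 5 were lower and 3 higher in every TLR4ΔIEC library.

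No gene of the machinery that rearranges or switches on the light chain loci passed the test. Of 11 V(D)J recombination genes, 7 were tested, none passed, and none had an unadjusted limma p under 0.05 (2.77% of all tested genes were lower at it and 18.4% higher). Rag1 and Rag2, which make the recombinase, were at 0.01 TPM or less in every library. Of 12 factors that bind light chain enhancers or V promoters, 11 were tested and none passed, with 1 higher at an unadjusted p under 0.05 (18.4% of all tested genes were). Of 8 germinal centre genes, 4 were tested and none passed, with 1 higher at that p. None of 10 T cell markers, 6 smooth muscle markers, 7 epithelium markers and 8 Peyer's patch markers passed. At an unadjusted p under 0.05, 4 epithelium markers and 1 Peyer's patch marker were higher in TLR4ΔIEC (18.4% of all tested genes were), and none of any of these 4 lists was lower.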

How the data were processed

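Total RNA of mouse gut was sequenced in 6 libraries, 3 per genotype label, and grouped by the sample titles. Per the labels' protocols, TRIzol extraction and DNase treatment preceded Illumina library preparation. Tools in the submitters' processing notes are fastp, HISAT and RSEM, and the build is GRCm38.p5. How ambiguous reads were divided, whether strand was used and whether reads over V to J junctions were kept are not given in the sources used here. Per the file headers, the authors deposited TPM for each gene in each library, beside group means that were left out. TPM keep no read totals, so no depth or counting interval can be given, and a gene that takes a large share lowers all others in its library. The design text gives 3 mice per genotype.

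In R 4.3.3, limma 3.58.1 was run on log2(TPM + 1) of the 13458 genes averaging 1 TPM or more (lmFit, eBayes with trend, two-sided, Benjamini-Hochberg at 0.05 over all of them), as TLR4ΔIEC minus WT. Fold changes on this scale understate those of low genes. Sums, shares, breadth and ratios were computed from TPM and carry no test. The fit was also run on simulated data with independent noise for each gene. These held no library apart from the rest, as TLR4ΔIEC replicate 2 was here, so they do not show how the fit handles one. Coordinates, gene types and coding sequences come from GENCODE M21 (GRCm38), which has an identifier for 52093 of the listed genes. The longest annotated coding sequence of each V gene was used, and identities come from pairwise alignment. The members and lists were chosen with earlier results of these data known.

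Segments are named if they were among the 12 kappa or 3 lambda of highest mean TPM, led a library, were among the 8 per direction of largest fold change without overlap, or had 1 of the 4 smallest p-values; families at 2% or more of light chain V TPM; and for the immunoglobulin, plasma cell and follicular lists up to 4 members that passed, filled by highest mean TPM. Some genes the rule picks, all those of the other lists included, are not given one by one. Replicate numbers name no shared animal and did not pair the samples (correlations of same-numbered deviations −0.04, 0.04 and 0.12), so no block was used. Alternatives tried were each library left out, a replicate block, array weights, robust or untrended eBayes, pseudocounts 0.1 and 5, the filter dropped or set at 5 TPM, median-of-ratios and quantile scaling, and TPM rescaled without the immunoglobulin genes, the 20 highest genes, or the alpha-defensin, mitochondrial and 18S-like (Rn18s, Cmss1, Gphn) genes. A motif search of V promoters was not run, since promoter sequences of the segments were not used here. Figures were drawn with matplotlib 3.10.9.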

Additional observations from a re-analysis of the deposited data

How the results depend on the processing

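No light chain V segment passed an adjusted p of 0.05 with limma as reported. With median-of-ratios scaling 1 passed and with quantile normalization 1 (Igkv14-111 in both), with array weights 6 did, and with each library left out in turn 0 to 5 did, the 5 without TLR4ΔIEC replicate 1 (Igkv12-44, Igkv12-46, Igkv14-111, Igkv17-127 and Igkv4-57). Every one of these was lower in TLR4ΔIEC. Over all genes 16 passed, against 0 with no filter, 7 at a mean of at least 5 TPM, 136 with array weights and 0 to 367 with a library left out, lowest without TLR4ΔIEC replicate 2 and without WT replicate 2. The replicate numbers did not pair the samples, and with a replicate block 1 segment (Igkv6-25) and 1 gene in all passed. The median log2 fold change of the tested segments stayed negative under all of these alternatives, between −2.17 and −1.15, while the median of all tested genes was 0.16 as reported and −0.12 after rescaling without the alpha-defensin, mitochondrial and 18S-like genes. The difference in segments, −9.33 at 1 TPM or more, was −17.3 at 5 TPM or more and 2.00 at 0.1% or more of V. The log2 ratio for kappa V over Igkc, −0.31, was −0.16 over Jchain and −1.98 over the plasma cell genes. The family difference of 11.7% ran between 9.20% and 18.5% with a library left out. Single libraries of the same group differed by 15.9% to 32.3%, which is no measure of how far group means vary. The cause of these changes was not tested.

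Among single genes, log2 fold changes changed sign as follows. Iglc2 was 0.038 with a pseudocount of 5 and 0.42 with array weights. Iglc3 was −0.036 with median-of-ratios scaling, −0.037 without the 20 highest genes and −0.15 without the alpha-defensin, mitochondrial and 18S-like genes, and Creld2 was −0.14 under that rescaling and −0.13 with quantile normalization. With a library left out, Igkv5-48 ran between −1.29 and 0.074, Iglc2 between −0.68 and 1.13, Iglc3 between −0.73 and 0.60, Ighm between −0.060 and 2.32, Txndc5 between −0.15 and 0.12, Xbp1 between −0.13 and 0.017, Cd79a between −0.49 and 1.71, Cd79b between −0.42 and 1.72, Cd37 between −0.25 and 1.47 and H2-Ob between −0.13 and 1.77. Every other V segment picked by the naming rule kept its sign under each alternative run. With 3 libraries a group, unknown depth and TLR4ΔIEC replicate 2 apart from the rest, segments at a few TPM cannot be placed above or below one another.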
